A study of Mus musculus with 25 samples.

Results

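The genes described are 9 genes of the DNA methylation machinery. They were chosen by symbol, out of 23990 genes listed, because dihydrocaffeic acid, a compound of the study, is reported to act on DNA methylation. They comprise the methyltransferases Dnmt1, Dnmt3a and Dnmt3b, the dioxygenases Tet1, Tet2 and Tet3, and the methyl-CpG-binding proteins Mbd1, Mbd2 and Mbd3. All 9 matched a row of the expression table by Ensembl identifier. The study sequenced RNA of the prefrontal cortex from 25 samples in 6 groups: male and female controls, and mice of both sexes put through social defeat with vehicle or with dihydrocaffeic acid and malvidin-glucoside. Columns of 1 group could be tied to the labels, so the values describe 5 libraries of stressed, vehicle-treated males and no effect of stress, compound or sex.

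Those libraries are of wild-type C57BL/6 males aged 10 weeks. Social defeat is repeated exposure to an aggressor, and vehicle was given from 2 weeks before it and throughout. Every library shares stress and vehicle, and none received the compounds. Columns are named by a letter and a number. The letters do not occur in the labels, which number the samples within each group. The letter E is the only one numbered up to 5, as is the group of stressed, vehicle-treated males. The assignment assumes that a letter is a group and a number a replicate. The other 20 columns fit 5 groups of 4 equally well and were not used here. The labels do not say that the libraries came from separate animals, so the spread between them may be partly technical.

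DNA methylation in mammals is the addition of a methyl group to cytosine, mostly where it precedes guanine. Dnmt1 copies the mark onto the new strand after replication, whereas Dnmt3a and Dnmt3b set it on unmethylated DNA. Tet enzymes oxidise methylcytosine, which leads to its removal by base excision repair or dilution. Mbd proteins bind methylated DNA or join the complexes that do, and recruit repressors. Neurons keep Dnmt1 and Dnmt3a after cell division has ended, build up methylation outside CG sites after birth and hold much hydroxymethylcytosine.

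The machinery acts on CG sites, and the annotated starts of its own genes differ widely in how many precede them. The windows at the ends of that range are shown. In the 250 bases upstream of annotated starts (RefSeq, GRCm38.p6), the CG dinucleotide, which reads the same on both strands, was counted. The median over 32841 windows of all genes was 6, with quartiles of 2 and 16. The 7 members with an entry had 11 windows, and 6 of these, from 5 members, held more than 16. Mbd1 and Mbd2 had no entry. Tet2 has 1 window with 51 CG (chr3:133544391-133544640, minus strand), a number reached by 0.0670% of all windows. Dnmt1 has 3 windows, with 2, 7 and 26 CG, the poorest of which lies farthest upstream (chr9:20959889-20960138, minus strand). At least 2 CG are found in 81.2% of all windows. The richest Dnmt1 window is at chr9:20952624-20952873. A window upstream of a start can lie within the full span of its gene, as the Tet2 window and this Dnmt1 window do. Dnmt3a has overlapping windows with 38 and 40 CG and another with 15, and the single windows of Mbd3, Tet1, Tet3 and Dnmt3b hold 14, 15, 17 and 21. Capitals mark each CG, written 5′ to 3′ on the strand of the gene.
Tet2, 51 CG: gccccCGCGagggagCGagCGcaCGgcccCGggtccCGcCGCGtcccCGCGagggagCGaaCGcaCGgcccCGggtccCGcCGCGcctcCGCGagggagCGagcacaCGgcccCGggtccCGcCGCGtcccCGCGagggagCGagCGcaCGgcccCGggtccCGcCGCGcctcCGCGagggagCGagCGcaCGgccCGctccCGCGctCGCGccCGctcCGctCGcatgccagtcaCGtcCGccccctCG
Dnmt1, 2 CG: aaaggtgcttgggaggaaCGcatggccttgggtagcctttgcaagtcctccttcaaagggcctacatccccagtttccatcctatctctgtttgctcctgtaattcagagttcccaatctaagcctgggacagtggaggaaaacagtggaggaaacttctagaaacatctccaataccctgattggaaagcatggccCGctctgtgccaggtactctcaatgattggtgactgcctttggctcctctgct
Dnmt1, 26 CG: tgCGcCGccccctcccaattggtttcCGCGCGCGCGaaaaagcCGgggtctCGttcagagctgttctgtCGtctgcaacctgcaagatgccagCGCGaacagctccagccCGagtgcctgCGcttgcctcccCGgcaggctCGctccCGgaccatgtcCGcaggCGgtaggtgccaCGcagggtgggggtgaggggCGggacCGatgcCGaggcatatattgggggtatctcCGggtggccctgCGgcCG
The expression values count reads over a whole gene, so they do not tell which Dnmt1 start was in use, and they hold no measure of methylation.

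Levels are given in CPM (reads per 1000000 of an effective library size) within a gene, and in RPKM (CPM per kilobase of the gene's merged exons) between genes. Means carry the SD over 5 libraries. The libraries held 34565147 to 44265039 reads, and 3 reads correspond to 0.0673 to 0.0870 CPM. The 2 most similar libraries still differed by more than counting error in 5653 genes, so no library was treated as deposited more than once; whether any share an animal or an RNA sample cannot be told from this. Marker genes of brain cell types were expressed, but they were not chosen to tell the prefrontal cortex from other brain regions. The 4 genes of excitatory neurons, led by Camk2a, summed to 6526 to 7926 CPM. The 5 genes of inhibitory neurons, led by Sst, summed to 852 to 926 CPM. Summed levels were 5248 to 5877 CPM for 5 astrocyte genes (Slc1a2 highest), 244 to 288 CPM for 4 microglial genes (Csf1r highest) and 91.4 to 109 CPM for 3 genes of oligodendrocyte precursors (Pdgfra highest). They were 145 to 169 CPM for 3 endothelial genes (Flt1 highest), 186 to 226 CPM for 6 mural and meningeal genes (Rgs5 highest) and 92.5 to 180.3 CPM for 5 blood genes (Hbb-bs highest). Mature oligodendrocytes were the glia that differed most, with 6 genes summing to 4994 CPM in replicate 3 but only 2261 CPM in replicate 4. In bulk tissue, fewer cells of a type and less RNA per cell cannot be told apart.

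Per kilobase, the levels of the 9 genes spanned from 57.0 ± 3.55 RPKM for Mbd3 to 0.170 ± 0.0650 RPKM for Dnmt3b. Mbd2 (9.98 ± 0.840 RPKM), Dnmt1 (8.48 ± 0.271 RPKM) and Dnmt3a (6.41 ± 0.681 RPKM) came next. Tet3 (4.45 ± 0.170 RPKM), Mbd1 (4.00 ± 0.314 RPKM), Tet2 (2.76 ± 0.366 RPKM) and Tet1 (0.909 ± 0.166 RPKM) followed. Of the 8 neighbouring pairs in this order, only Tet3 and Mbd1 had overlapping ranges over libraries. Mbd3 stood above 94.7% of the genes whose mean reached 1 CPM, whereas Tet1 stood above 13.8% of them. With the longest annotated transcript as the length, Dnmt3a (11.0 ± 1.17 RPKM) and Dnmt1 (10.7 ± 0.341 RPKM) changed places, as did Mbd1 (6.84 ± 0.536 RPKM) and Tet3 (6.82 ± 0.261 RPKM). Mbd2 (16.4 ± 1.38 RPKM) and Tet2 (5.08 ± 0.673 RPKM) were more than 1.5 times higher under this length and kept their places. The order of Dnmt1 and Dnmt3a thus rests on the exon model.

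**Figure D1:**
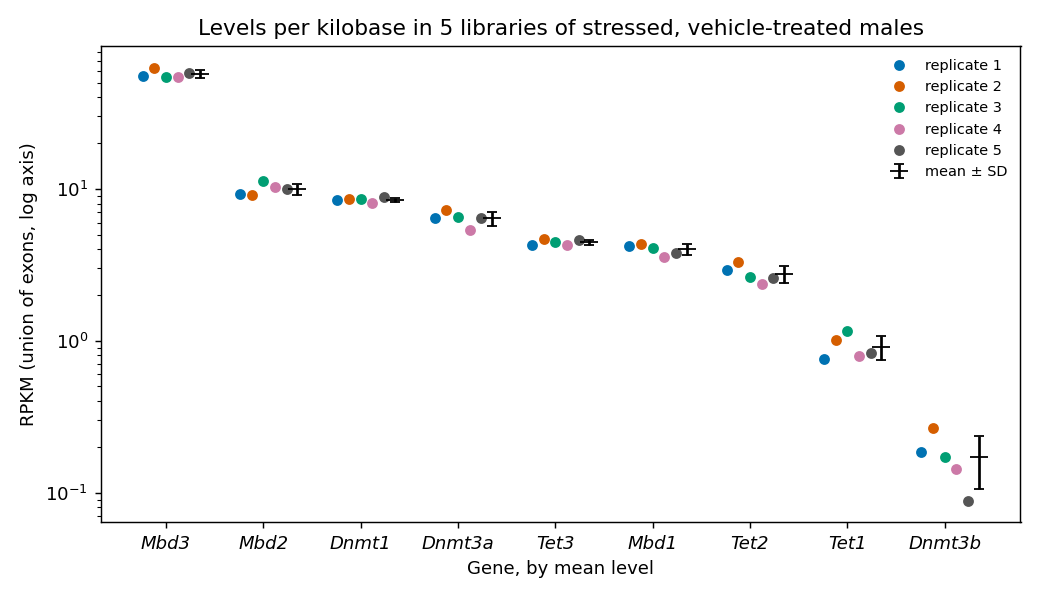
RPKM on a log axis for each of the 9 genes in 5 libraries of stressed, vehicle-treated males (coloured points), with the mean and SD in black. Mbd3 lies highest at 57.0 RPKM and Dnmt3b lowest at 0.170 RPKM, and the points of neighbouring genes overlap only between Tet3 and Mbd1.

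Among the writers, the maintenance enzyme Dnmt1 was nearly level across libraries (chromosome 9, 20907209 to 20959888, minus strand, GRCm38, with 39 exons in its longest transcript). It stood at 62.1, 63.5, 63.0, 59.4 and 64.7 CPM in replicates 1 to 5. The highest library, replicate 5, exceeded the lowest, replicate 4, by 1.09 times. The SD of its log2 level, 0.047, was larger than that of 4.07% of genes with at least 1 CPM, whose median was 0.13. A chi-square test asked whether reads varied more than counting allows, and Dnmt1 did not pass it (Benjamini-Hochberg adjusted p = 0.0701). With scaling to total reads it passed (adjusted p = 0.0129). It also passed when replicate 1, 2 or 3 was left out (adjusted p = 0.0448, 0.0485 and 0.0415). It did not pass without replicate 4 (adjusted p = 0.548) or replicate 5 (adjusted p = 0.150).

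Dnmt3a, the main de novo methyltransferase of the adult brain, spread more widely (chromosome 12, 3806007 to 3914443, plus strand, 23 exons). It was at 107, 121, 109.0, 89.2 and 107 CPM in replicates 1 to 5. Replicate 4 was the low library and replicate 2 the high one, and the other 3 lay between 107 and 109.0 CPM. The highest value was 1.36 times the lowest, and the spread passed the chi-square test (adjusted p = 3.12e-35). The SD of log2 was 0.16, and 0.084 without replicate 4. The antisense gene Dnmt3aos shares 133 exonic bases with Dnmt3a, and the sources used here do not say whether reads were counted by strand.

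Dnmt3b, the de novo enzyme best known from the early embryo, had few reads (chromosome 2, 153649450 to 153687730, plus strand, 24 exons). It had 39, 52, 39, 25 and 18 reads in replicates 1 to 5, or 0.939, 1.36, 0.874, 0.725 and 0.452 CPM. Replicate 2 was 3.01 times replicate 5. The spread passed the chi-square test (adjusted p = 0.00119), but not without replicate 2 (adjusted p = 0.0772) or replicate 5 (adjusted p = 0.0530). Dnmt3c, a rodent copy of Dnmt3b that serves the male germline, had 2 to 10 reads per library. Reads that fit both genes could have been counted for either gene or left out, so the Dnmt3b level is uncertain. Dnmt3l, the inactive cofactor of the de novo enzymes, stood at 0 reads in replicates 2 and 4 and at up to 0.251 CPM elsewhere. A count of 0 allows up to 0.0784 CPM in replicate 2 and 0.0870 CPM in replicate 4, for counting error only.

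Together the writers summed to 15.1 ± 0.939 RPKM. Dnmt1 made up 56.4% ± 2.23 of this sum, Dnmt3a 42.5% ± 1.98 and Dnmt3b 1.12% ± 0.384. The ratio of Dnmt3a to Dnmt1 was 0.754 ± 0.0647 in RPKM and lay between 0.665 in replicate 4 and 0.844 in replicate 2. With the longest transcript as the length it was 1.03, and Dnmt3a then stood above Dnmt1 in 3 of 5 libraries. Dnmt3a exceeded Dnmt3b by 42.2 ± 17.5 times, with a range of 27.3 in replicate 2 to 72.4 in replicate 5.

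Of the erasers, Tet3 was the most abundant (chromosome 6, 83362373 to 83459084, minus strand, 11 exons). Tet3 is also known for oxidising the paternal genome in the fertilised egg. It stood at 71.5, 77.9, 74.2, 71.7 and 76.4 CPM in replicates 1 to 5, with replicate 2 at 1.09 times replicate 1. The SD of log2 was 0.055, larger than that of 7.12% of genes. This spread passed the chi-square test (adjusted p = 0.00378), but not without replicate 2 (adjusted p = 0.0504).

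Tet2, an enzyme without the CXXC DNA-binding domain of its relatives, was at 49.1, 56.0, 44.0, 39.9 and 43.9 CPM (chromosome 3, 133463679 to 133545139, minus strand, 11 exons). Replicate 2 was high, replicate 4 low, and the ratio between them 1.40. The spread passed the chi-square test (adjusted p = 1.02e-24), and the SD of log2 of 0.19 was 0.12 without replicate 2. The antisense gene Gm42567 shares 43 exonic bases with Tet2 and had a mean of 0.0692 ± 0.0551 CPM.

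Tet1, which carries a CXXC domain and is best known from embryonic stem cells, was the least abundant eraser and the most variable (chromosome 10, 62804570 to 62908996, minus strand, 13 exons). Its values were 11.8, 15.6, 17.8, 12.3 and 12.8 CPM in replicates 1 to 5. Replicates 3 and 2 were high and the other 3 lay between 11.8 and 12.8 CPM. The highest library was 1.51 times the lowest, and the spread passed the chi-square test (adjusted p = 3.89e-15). The SD of log2, 0.25, was larger than that of 80.9% of genes with at least 1 CPM.

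The library with the highest Tet1 also had the most RNA of dividing cells and of oligodendrocytes. The cell cycle genes Mki67, Top2a and Ccnb1 summed to 11.4 CPM in replicate 3 and to 2.61 to 3.84 CPM in the others, and none was at 0. Mki67 stood at 5.13 CPM there against 1.51 to 2.07 CPM elsewhere, and Top2a at 5.27 CPM against 0.435 to 1.64 CPM. Uhrf1, which brings Dnmt1 to newly replicated DNA, was also highest in replicate 3 (2.38 CPM, against 0.603 to 1.44 CPM). Tet1 in replicate 2 was 15.6 CPM while the cell cycle genes summed to 3.84 CPM there. Without replicate 3 the mean of Tet1 was 13.1 ± 1.73 CPM. The part of other cells in the Tet1 value was not tested.

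**Figure D2:**
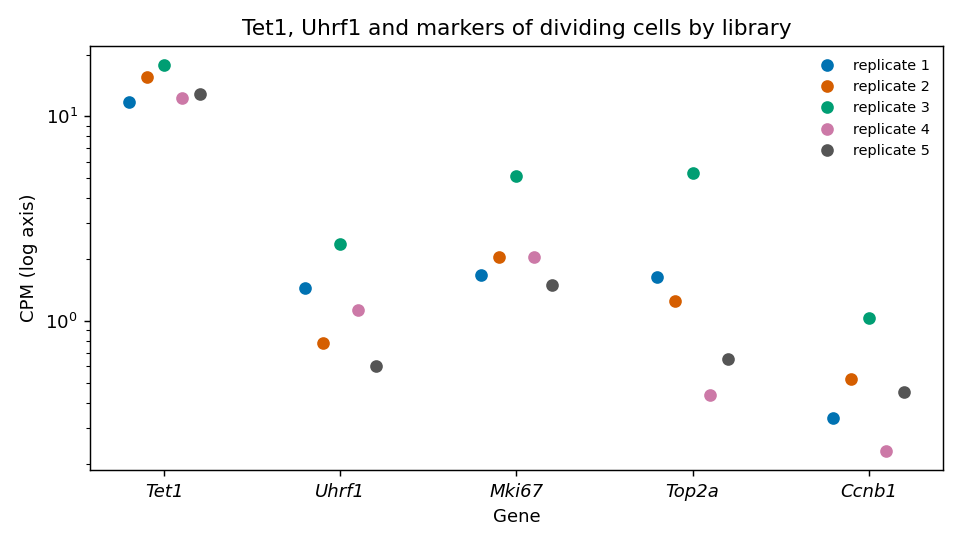
CPM on a log axis for Tet1, Uhrf1 and the cell cycle genes Mki67, Top2a and Ccnb1 in each of 5 libraries of stressed, vehicle-treated males (one coloured point per library). Replicate 3 is the highest point for all 5 genes, at 17.8 CPM for Tet1 and 5.13 CPM for Mki67.

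The 3 erasers summed to 8.12 ± 0.561 RPKM. Tet3 made up 54.9% ± 2.41 of this, Tet2 33.9% ± 2.61 and Tet1 11.2% ± 1.70. Tet3 was above Tet2 by 1.63 ± 0.181 times and above Tet1 by 5.00 ± 0.750 times in RPKM. With the longest transcript as the length these ratios were 1.36 and 7.12, so the shares of the erasers also rest on the exon model. The share of Tet1 was highest in replicate 3 (14.0%) and lowest in replicate 1 (9.59%).

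Of the readers, Mbd3 was the highest member of all, and it is also the shortest gene among them (chromosome 10, 80392539 to 80399550, minus strand, 7 exons). Mbd3 is a subunit of the NuRD complex, a chromatin remodeller with histone deacetylase activity, and in mammals it binds methylated DNA poorly. It stood at 110.0, 125, 108, 109 and 114 CPM in replicates 1 to 5. Replicate 2 was the high library at 1.16 times replicate 3, and the spread passed the chi-square test (adjusted p = 2.71e-13). The SD of log2 was 0.087 over all libraries and 0.038 without replicate 2.

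Mbd2, the methyl-binding partner that takes the place of Mbd3 in a separate NuRD complex, differed in pattern (chromosome 18, 70568189 to 70626131, plus strand, 7 exons). It stood at 29.8, 29.4, 36.0, 33.0 and 32.2 CPM, lowest in replicate 2 and highest in replicate 3, with a ratio of 1.23 (adjusted p = 3.40e-07, chi-square test). The ratio of Mbd3 to Mbd2 was 5.76 ± 0.765 in RPKM, and ran from 4.84 in replicate 3 to 6.88 in replicate 2. Mbd1, a repressor that works with the histone methyltransferase Setdb1, was at 28.1, 29.2, 27.3, 24.0 and 25.4 CPM (chromosome 18, 74267605 to 74282732, plus strand, 12 exons). Its highest library, replicate 2, was 1.22 times the lowest, replicate 4 (adjusted p = 0.000157, chi-square test). Mbd3 held 80.3% ± 1.56 of the summed reader level of 70.9 ± 3.23 RPKM, Mbd2 14.1% ± 1.57 and Mbd1 5.64% ± 0.369. With the longest transcript as the length the ratio of Mbd3 to Mbd2 was 4.18, so these shares also rest on the exon model.

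In all, 8 of 9 members varied beyond counting error, and 74.4% of the 19239 genes tested did so. The count of members was 7 to 9 when each replicate was left out. The test calls more genes where reads are many: 97.8% of genes at 100 to 300 CPM and 55.3% of those at 0.3 to 1 CPM passed. The members' median SD of log2 was 0.12, against 0.13 (quartiles 0.089 and 0.22) for genes with at least 1 CPM. Against genes of their own level, Tet1, Tet2 and Dnmt3a lay above the upper quartile of the SD, which was 0.17, 0.14 and 0.13 in the 3 ranges they fall in. Dnmt1 and Tet3 lay below the lower quartile of 0.071, and the other 4 members lay between the quartiles. The places of Dnmt3a and Tet2 above these quartiles rested on 1 library each: the SD of Dnmt3a was 0.084 without replicate 4 and that of Tet2 0.12 without replicate 2, both within the quartiles of the 5 libraries.

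**Figure D3:**
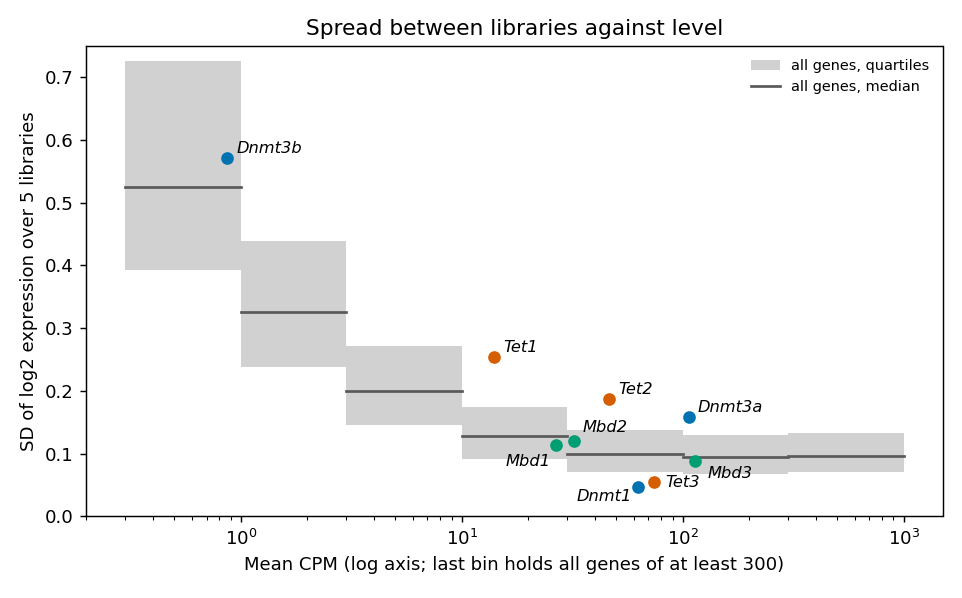
SD of log2 expression over 5 libraries against mean CPM (log axis) for the 9 members (points: writers blue, erasers orange, readers green), with the median (line) and quartiles (grey band) of all tested genes in bins of level. Tet1, Tet2 and Dnmt3a lie above the band, and Dnmt1 and Tet3 below it.

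In replicate 2, 8 of 9 members were above their own mean, all but Mbd2, whereas 48.7% of genes with at least 1 CPM were. Replicate 2 was the highest library for 6 members and for 16.5% of those genes. In replicate 4, 8 of 9 members were below their own mean, again all but Mbd2, whereas 47.5% of genes were. These counts of 8 were the same with scaling to total reads and by median of ratios. They take only the sign of each log2 deviation, and some were small or rested on few reads. Dnmt1 deviated by 0.023 in replicate 2, and Dnmt3b by -0.17 in replicate 4 with 25 reads. Whether each deviation exceeded counting error was not tested. The median deviation of the members was 0.14 in replicate 2 and -0.16 in replicate 4 on the log2 scale, and that of all genes with at least 1 CPM was -0.0038 and 0.0098. Replicate 4 also had the lowest sums for oligodendrocytes (2261 CPM) and their precursors (91.4 CPM), and its mitochondrial share of reads was 6.12% against 5.70% to 6.07%. Its blood sum was the highest (180.3 CPM), with all 5 genes highest there, among them the neutrophil genes S100a8 (5.22 CPM against 0.179 to 0.889 CPM) and S100a9 (6.55 CPM against 0.359 to 0.626 CPM). The meningeal genes Ogn (3.71 CPM against 0.314 to 1.18 CPM), Dcn (5.33 CPM against 2.04 to 3.82 CPM) and Igf2 (38.4 CPM against 17.1 to 26.3 CPM) were highest there too, whereas the sum of the mural and meningeal list was second to replicate 1. Of the mural genes of that list, Rgs5 was highest in replicate 4 and Vtn in replicate 1. Pdgfrb was lowest in replicate 4 (23.6 CPM, against 26.9 to 33.1 CPM elsewhere). The sums of replicate 4 were also highest for astrocytes (5877 CPM, against 5826 CPM in replicate 1), excitatory neurons (7926 CPM) and endothelium (169 CPM). This did not hold for every gene of these lists. Of the astrocyte genes, only Slc1a2 was highest in replicate 4. Slc1a3, Aldoc and Gfap were highest in replicate 1 and Aqp4 in replicate 5. Camk2a and Nrgn were highest in replicate 4 and Slc17a7 and Neurod6 were not. Flt1 and Pecam1 were highest in replicate 4 while Cldn5 was lowest. Replicate 2 had the lowest mitochondrial share and the lowest sums for blood (92.5 CPM) and astrocytes (5248 CPM). Of the astrocyte genes, Aqp4, Slc1a2 and Slc1a3 were lowest in replicate 2, but Aldoc was lowest in replicate 3 and Gfap in replicate 5. Of the blood genes, Hbb-bs and Hba-a1 were lowest in replicate 2, but Alas2, S100a8 and S100a9 were lowest in replicate 3. The part of these differences in the members' levels was not tested.

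**Figure D4:**
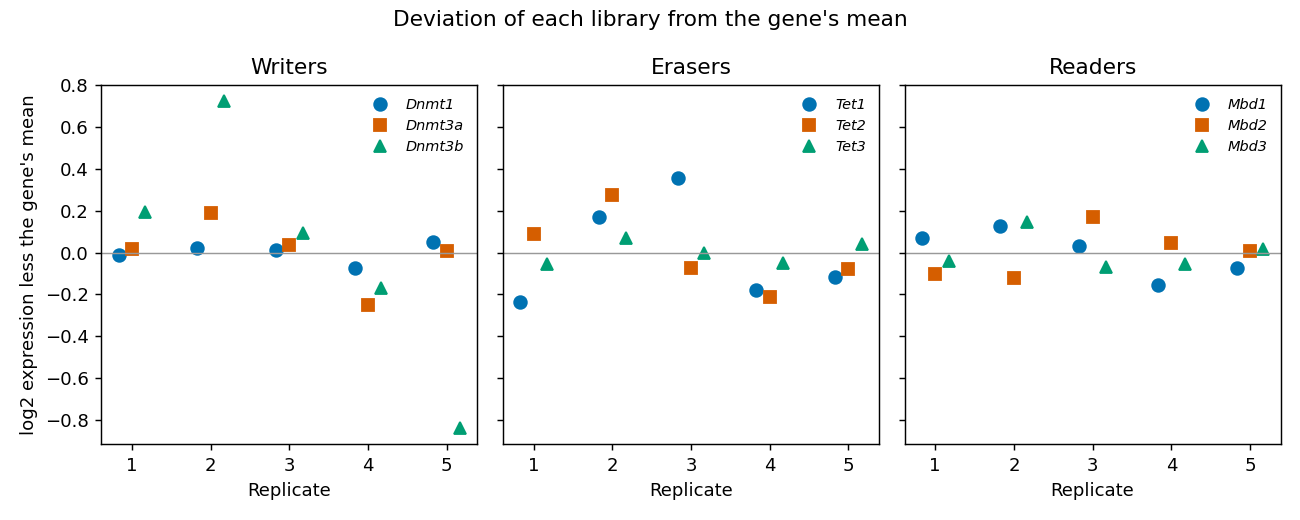
Difference of each library's log2 expression from the gene's mean over 5 libraries, by replicate, for writers, erasers and readers. All members except Mbd2 lie above 0 in replicate 2 and below 0 in replicate 4, and Dnmt3b has the widest range.

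Likeness of pattern was measured over 5 libraries by the root mean square difference of centred log2 values. The nearest pairs were Dnmt1 with Tet3 (0.032), Tet3 with Mbd3 (0.047) and Dnmt3a with Mbd1 (0.067). The farthest was Dnmt3b with Mbd2 (0.56). Flat genes are near each other by this measure, and no correlation is given over so few libraries.

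Other genes of the pathway gave the setting of these levels. All 64 genes of 6 related lists were in the table, and 62 of them had a mean of at least 1 CPM. Of 63 tested, 58 varied beyond counting error, against 74.4% of all genes and 81.5% of those with at least 1 CPM. The share of all genes was 89.9% at 30 to 100 CPM and 97.8% at 100 to 300 CPM. These shares are the background for the counts by list below. Whether the lists differ from genes of like level was not tested. Other genes of the reader families varied in 7 of 7 cases. The zinc-finger reader Zbtb4 was highest per kilobase (18.8 ± 1.11 RPKM), before Mbd6, not known to bind methylated DNA (12.6 ± 2.52 RPKM). Mbd6 was the most variable gene of this list, with a range from 68.0 CPM in replicate 2 to 43.2 CPM in replicate 4.

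Of 11 demethylation and repair genes, 10 varied beyond counting error, all but the glycosylase gene Neil2. The repair sensor Parp1 (12.4 ± 0.684 RPKM) and the stress-induced Gadd45g (9.94 ± 1.52 RPKM) were highest, before Tdg (5.53 ± 0.490 RPKM), the glycosylase that removes the products of Tet oxidation. Tdg peaked in replicate 2 at 33.9 CPM, against 27.7 to 30.7 CPM elsewhere. Gadd45b, an activity-induced gene linked to demethylation in neurons, peaked in replicate 4 at 10.2 CPM, against 7.58 to 8.23 CPM elsewhere. The glycosylase Neil1 was the most variable of the list, from 13.9 CPM in replicate 1 to 7.45 CPM in replicate 4.

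Of 12 tested cofactors of maintenance and targeting, 10 varied, and Uhrf2 and Atf7ip did not pass the test. Ogt, the sugar transferase that binds Tet proteins, was highest (38.8 ± 3.52 RPKM), before the CXXC protein Cxxc5 (33.7 ± 2.64 RPKM) and Usp7, the deubiquitinase partner of Dnmt1 (22.4 ± 0.886 RPKM). Uhrf1 was at 1.27 ± 0.699 CPM and Uhrf2 at 41.7 ± 1.62 CPM, or 0.298 ± 0.164 and 4.86 ± 0.189 RPKM. Among NuRD subunits, 12 of 13 varied, all but Mta2. The remodelling ATPase genes Chd3 (112 ± 11.1 RPKM) and Chd5 (47.1 ± 3.65 RPKM) and the histone-binding Rbbp7 (35.2 ± 3.61 RPKM) led this list. Mbd3, at 57.0 RPKM, thus lay between Chd3 and Chd5.

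Of 12 genes of the methyl donor cycle, 11 varied, all but the methionine synthase gene Mtr. Ahcyl1, a relative of the S-adenosylhomocysteine hydrolase (54.6 ± 2.56 RPKM), and the subunits of S-adenosylmethionine synthetase Mat2a (33.5 ± 2.06 RPKM) and Mat2b (19.4 ± 2.10 RPKM) were highest. Shmt1, a folate cycle enzyme, was the most variable of those with at least 1 CPM, from 1.59 to 2.44 CPM. All 8 genes that make or use the cofactors and inhibitors of Tet enzymes varied. They were led by the succinate dehydrogenase subunit Sdha (100.1 ± 3.56 RPKM), the oxoglutarate dehydrogenase Ogdh (46.7 ± 1.37 RPKM) and the isocitrate dehydrogenase subunit Idh3a (36.7 ± 3.78 RPKM). D2hgdh, which clears hydroxyglutarate, had the largest SD of log2 among them, from 7.36 to 10.02 CPM. That SD includes counting error, and D2hgdh had 282 to 428 reads per library.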

How the data were processed

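RNA sequencing values of 5 libraries of stressed, vehicle-treated males were taken from a table of the whole series, and its 20 other columns were not used. Per the submitters' processing notes, the genome builds were mm10 and GRCm38, and STAR 2.6.1d, SAMtools 1.9, featureCounts (Subread 1.6.3) and edgeR were among the tools. The annotation release and the strand setting of the counting were not given in the sources used here. Expression was deposited as log2 values. Their form, log2 of reads plus 0.5 per 1000000 of an effective library size, was inferred from the values. With each column's lowest value as 0 reads, 100% of values were whole within 1e-06 reads. That gave reads and CPM, and RPKM used merged exons of GENCODE M21 (GRCm38), which named 23856 of 23990 identifiers. Effective sizes were 0.998 to 1.04 times the summed reads.

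Spread was tested per gene by a chi-square test of reads against effective size (4 degrees of freedom; mean of at least 5 reads; Benjamini-Hochberg threshold 0.05), and was checked on simulated reads. Intervals and floors cover counting error only. No test between groups was run, because columns of 1 group could be assigned. Members and lists were chosen with earlier results of these data known. Named genes are the members, Uhrf1, Tdg and Gadd45b, the 3 highest genes in RPKM and the most variable gene of each related list, and the highest gene of each marker list, except for genes that are not reported here; Top2a, Ccnb1, Dnmt3c, Dnmt3l, Uhrf2, the other marker genes given for replicates 2 and 4 and the genes that did not pass the test were named after their values were seen. Alternatives were scaling, filters, added reads, transcript length and leaving out each replicate. Tests used scipy 1.17.1 under Python 3.11.15, tables pandas 2.3.3 and numpy 2.4.6, and figures matplotlib 3.10.9.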

Additional observations from a re-analysis of the deposited data

Results flagged for a closer look

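Dixon's ratio was computed for 42 genes over the 5 libraries. It singled out a library for 2 genes, neither of them among the 9 members, and chance gives about 2.1. Gadd45b had its outlying value in replicate 4, where it reached 10.2 CPM against 7.58 to 8.23 CPM elsewhere. For Mki67 the outlying library was replicate 3, with 5.13 CPM against 1.51 to 2.07 CPM elsewhere.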

How the results depend on the processing

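No paired analysis was possible because columns of 1 group could be assigned, and comparisons between groups were not run. With the longest transcript as the length, the RPKM ratios were 1.03 for Dnmt3a to Dnmt1, 61.3 for Dnmt3a to Dnmt3b, 7.12 for Tet3 to Tet1, 1.36 for Tet3 to Tet2 and 4.18 for Mbd3 to Mbd2; the alternative changes only the lengths. Counts of varying members (7 to 9), of all genes (12646 to 15862) and of related genes (54 to 59) stayed within 1.5 times the reported counts under every scaling, filter and left-out replicate. For members and related genes the upper limit exceeds the number of genes, so only a fall could leave this range. The number of all genes tested changed with the filter, from 15914 to 23856. Calls changed under some settings for Dnmt1, Dnmt3b and Tet3, as given with their values. Removing a library moved the SD of log2 by over 1.5 times for Dnmt1 (0.025 without replicate 4), Dnmt3a, Dnmt3b (0.38 without replicate 5), Tet2 and Mbd3. The 18 to 52 reads of Dnmt3b per library limit its precision.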
